A study of Rattus norvegicus with 74 samples.

Results

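Whole red gastrocnemius (SM) of rats numbered 2 to 16 was compared with that of rats numbered 17 to 32 for its response to endurance training. The quantity of interest is the interaction, the trained-minus-sedentary difference in rats 17 to 32 minus that in rats 2 to 16. The libraries were taken by the rat number in their titles: 7 sedentary (Sed) and 7 trained (ExT) in the lower range, 8 and 8 in the higher, 30 of the 74 libraries of the series. The labels give no date, batch or other meaning for the numbers, so the ranges are called by number only, and anything that went with the number cannot be told apart from it.

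The series sequenced whole muscle, mitochondria isolated from it (MT) and left ventricle of male wild-type Wistar Kyoto rats aged 9 weeks. ExT rats began treadmill running when 5 weeks old and ran on 5 days of each of 4 weeks, reaching 60 min a day at 20 m/min after the opening week. Sed rats spent the same time on a treadmill that did not move. Muscle was taken 24 h after the last session. All rats of both arms drank water with 8% deuterium oxide, the labels describe them as housed in pairs without naming the pairs, and each library began with 50 ng of total RNA depleted of ribosomal RNA. Each library is 1 rat, so p-values measure the spread between rats.

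Skeletal muscle mixes slow fibres, which burn fat and sugar in many mitochondria, with fast fibres that rely more on glycogen and glycolysis. Repeated endurance exercise is known to raise mitochondrial content, fat oxidation and capillary supply, through regulators such as the coactivator PGC-1alpha (Ppargc1a), and to shift fast fibres towards more oxidative myosins. The red inner gastrocnemius is a mixed region rich in oxidative fibres, next to a paler and more glycolytic one.

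Total counts of the 30 libraries ran from 19477976 to 39401323, and 14033 of 30560 genes were tested. Levels are given as CPM, a gene's count relative to its library's total after scaling by the TMM method, and 3 counts, taken as the smallest level a library can show, equal 0.0761 to 0.154 CPM. All 8 muscle markers on the list (such as Acta1, Ckm and Des) were tested, with a sum of 102400 to 199900 CPM. The library of Sed rat 24 stood apart from the rest, with the lowest quality weight in limma's voom (0.502) and the highest scaling factor (1.18). The larger moves on leaving it out are given beside the results they touch.

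No gene passed the test of the interaction. With the threshold at 0.05 for the p adjusted over all genes tested (Benjamini-Hochberg), the quasi-likelihood test of edgeR gave 0 calls among 14033 genes (0%), the smallest adjusted p being 0.154. At an unadjusted p under 0.05 there were 1803 genes, 12.8% of those tested: 797 (5.68%) with a higher training effect in rats 17 to 32 and 1006 (7.17%) with a lower one. limma's voom also called 0 genes, with a smallest adjusted p of 0.0559, whereas DESeq2 called 46 of the 7231 genes it adjusted (0.636%), 15 higher (0.207%) and 31 lower (0.429%). Most of the 46 lay at the threshold, with a DESeq2 adjusted p of 0.0499 to 0.05. In 45 of those 46 genes the fitted training effect had opposite signs in the ranges, which choosing genes for a large interaction favours. Of all 14033 genes, 7544 (53.8%) had the same sign in both ranges. The median standard error (SE) of a gene's interaction was 0.157 on the log2 scale, against a median absolute interaction of 0.152. Leaving out 1 library at a time gave 0 calls in 26 of 30 fits. Without Sed rat 11 there were 3 calls (Ckap4, Rcan1 and Mpp7), without Sed rat 12 there was 1 (Rapgef2), without Sed rat 24 there were 2 (Lmcd1 and Mpp7), and without ExT rat 22 there were 4 (Ifi47, Rnf152, Rapgef2 and Nedd4l).

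The 10 genes of smallest interaction p are therefore described as not passing. All 10 had training effects of opposite sign in the ranges, which choosing them by the interaction favours. DESeq2 called 8 of them and gave no adjusted p for the other 2. Their levels are given for 7 rats in each arm of the lower range and 8 in each arm of the higher.

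Mpp7 encodes a scaffold protein of cell junctions. In rats 2 to 16 its level was 6.24 to 12.2 CPM in Sed (median 9.18) and 10.8 to 16.6 in ExT (median 14.9). In rats 17 to 32 it was 9.88 to 21.1 in Sed (median 13.6) and 8.9 to 13.1 in ExT (median 11.5). The arms overlapped in both ranges, ExT being the higher arm in the lower range and the lower arm in the higher range. As a log2 fold change the training effect came to 0.61 (SE 0.152, edgeR adjusted p = 0.0309) in rats 2 to 16 and -0.43 (SE 0.140) in rats 17 to 32, an interaction of -1.03 (SE 0.207, adjusted p = 0.154).

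Rcan1, an inhibitor of the calcium-activated phosphatase calcineurin, had the widest crossing among these genes. Its level in rats 2 to 16 was 26.6 to 98.6 CPM in Sed (median 40.6) and 50.4 to 216 in ExT (median 96.1). In rats 17 to 32 it was 57.1 to 204 in Sed (median 78.0) and 35.8 to 82.1 in ExT (median 49.4). The Sed rats of the higher range thus lay near the ExT rats of the lower one, and the ExT rats of the higher range near the Sed rats of the lower one. The log2 fold changes were 1.18 (SE 0.331, adjusted p = 0.0541) and -1.0 (SE 0.308), and the interaction was -2.18 (SE 0.452, edgeR adjusted p = 0.161).

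Rnf152 encodes a ubiquitin ligase of the lysosome. In rats 2 to 16 its level was 1.51 to 2.09 CPM in Sed (median 1.86) and 3.02 to 4 in ExT (median 3.42), with no overlap between the arms. In rats 17 to 32 it was 1.80 to 3.77 in Sed (median 3.18) and 1.65 to 4.13 in ExT (median 2.77), and the arms overlapped over most of their range. The training effect was 0.88 (SE 0.155, edgeR adjusted p = 0.00589) in the lower range and -0.09 (SE 0.139) in the higher, with an interaction of -0.96 (SE 0.208, adjusted p = 0.161).

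Nedd4l, a ubiquitin ligase that removes ion channels from the membrane, was the only one of the 10 with a negative effect in rats 2 to 16. There it was 30.2 to 37.2 CPM in Sed (median 32.5) and 23.3 to 30.1 in ExT (median 26.3), so that every ExT library lay below every Sed library. In rats 17 to 32 Sed libraries held 22.4 to 34.4 CPM (median 27.6) and ExT libraries 26.4 to 38.8 (median 32.1), with overlap. As a log2 fold change the training effect came to -0.31 (SE 0.0881, edgeR adjusted p = 0.0499) and 0.24 (SE 0.0821), the interaction 0.55 (SE 0.120, adjusted p = 0.161). The call in rats 2 to 16 is close to the threshold and was kept in 18 of 39 alternative settings.

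Rapgef2, which activates the small GTPase Rap1 and whose row in the deposited table carries the biotype pseudogene, was 27.3 to 36.2 CPM in Sed (median 30.3) and 35.3 to 45.1 in ExT (median 37.7) in rats 2 to 16. In rats 17 to 32 it was 35.8 to 41.2 in Sed (median 39.2) and 33.7 to 40.8 in ExT (median 36.7). Its effect of 0.34 (SE 0.0621, edgeR adjusted p = 0.00589) in the lower range stood beside -0.07 (SE 0.0577) in the higher. Ckap4, a membrane protein of the endoplasmic reticulum, was 7.58 to 16.5 CPM in Sed (median 10.7) and 13.5 to 19.2 in ExT (median 15.1) in rats 2 to 16. Among rats 17 to 32 it was 12.2 to 16.8 in Sed (median 14.9) and 11 to 15.1 in ExT (median 12.4). Both genes passed the test in rats 2 to 16 (Ckap4 0.48, SE 0.112, adjusted p = 0.0258), and both had overlapping arms in both ranges.

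**Figure D1:**
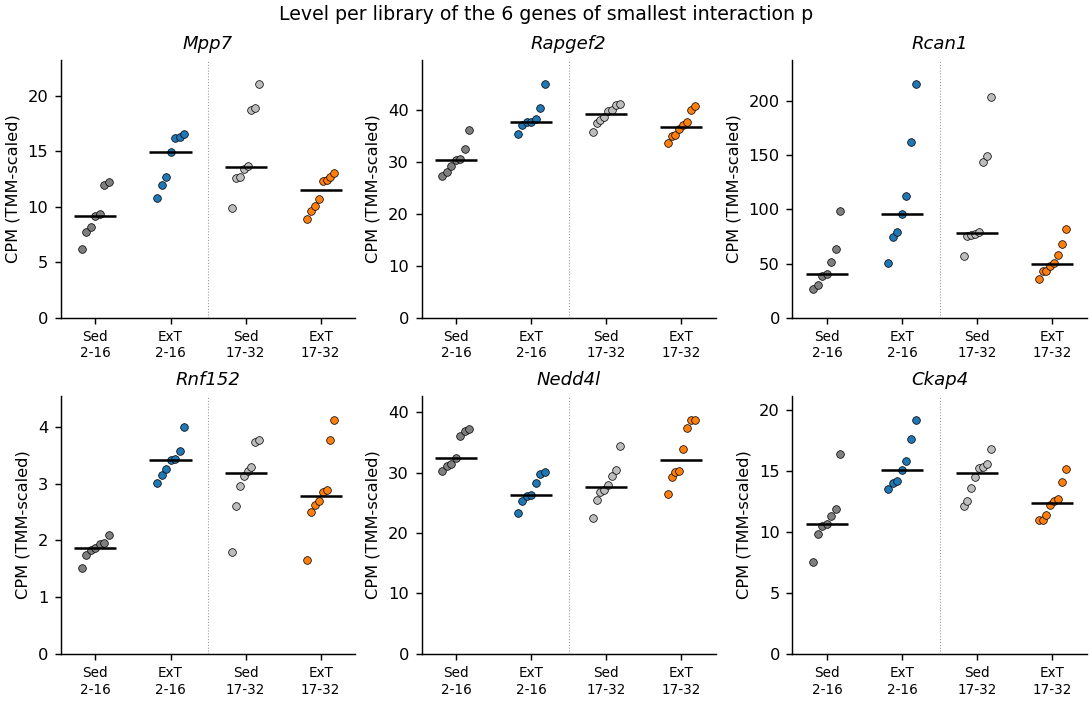
CPM (TMM-scaled, linear axis from 0) of the 6 genes of smallest interaction p in each muscle library, 1 point per rat, by arm and rat number, with a bar at each group's median. In rats 2 to 16 the ExT points of Rnf152 lie above, and those of Nedd4l below, every Sed point, while in rats 17 to 32 the arms overlap in all 6 genes.

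The other 4 were Wdr37, Tiam2 (an activator of the GTPase Rac), Fxyd5 (a regulator of the sodium pump) and Lmcd1 (a LIM domain protein). Lmcd1 had log2 fold changes of 0.99 (SE 0.226, edgeR adjusted p = 0.0265) and -0.38 (SE 0.21), and Wdr37 0.38 (SE 0.0915, adjusted p = 0.0272) and -0.17 (SE 0.0847). Tiam2 (0.72 and -0.54) and Fxyd5 (0.49 and -0.49) passed in neither range, with adjusted p of 0.0564 and 0.0879 in the lower one. With the slow-fibre share of each library as a covariate (defined below with the slow-fibre genes) the Lmcd1 interaction was -0.92 in place of -1.37, the largest relative drop of the 10. With the same covariate the interactions of Tiam2 (-1.27 to -1.36), Rnf152 (-0.96 to -1.05) and Nedd4l (0.55 to 0.60) were slightly larger in size.

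Rats 2 to 16 alone gave 322 called genes, 2.29% of those tested, of which 217 (1.55%) rose and 105 (0.748%) fell with training, and DESeq2 called 775 of the 11856 genes it adjusted (6.54%). Rats 17 to 32 gave 0 calls (0%) by edgeR, with a smallest adjusted p of 0.116, and 1072 genes (7.64%) at an unadjusted p under 0.05, against 2836 (20.2%) in the lower range, 1552 of them higher (11.1%) and 1284 lower (9.15%). Among rats 17 to 32 voom called 0 genes and DESeq2 called 3 (0.0214%; Tcte1 higher, Zc3h10 and an Ensembl gene without a symbol lower). The median SE was 0.115 in the lower and 0.107 in the higher range, from 1 fit with a shared spread and 7 against 8 rats an arm, and the median absolute log2 fold change was 0.129 and 0.085. A shared spread cannot show whether the libraries of 1 range vary more than those of the other. Every ExT library lay above every Sed library in 98 genes and below in 23 in rats 2 to 16 (0.862% of genes tested), and in 3 and 1 genes in rats 17 to 32 (0.0285%). Calls in 1 range and not in the other do not show that the ranges differ: the test of that difference is the interaction.

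The number called in rats 2 to 16 rested on single libraries. It was 28 without ExT rat 5, 33 without ExT rat 10, 33 without Sed rat 4, 45 without Sed rat 8, 57 without Sed rat 7, 178 without Sed rat 12 and 186 without ExT rat 6, and it was 1067 without Sed rat 11. Each of the other 22 leave-outs stayed within 1.5 times of 322. Of the 28 genes called without ExT rat 5 all were among the 322, as were 322 of the 1067 called without Sed rat 11. Sed rat 11 had the highest level of 1 gene set that the next paragraphs turn on, the slow-fibre genes, among the Sed rats of its range.

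**Figure D2:**
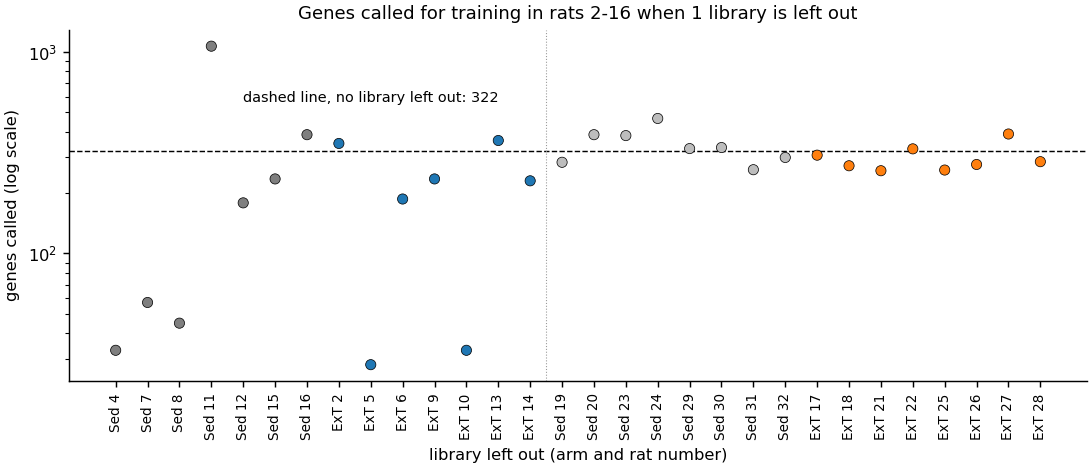
Number of genes called for training in rats 2 to 16 (log axis) when each of the 30 libraries is left out in turn, with a dashed line at 322, the count with every library. Leaving out ExT rat 5 gave 28 calls and Sed rat 11 gave 1067, while leaving out libraries of rats 17 to 32 (right of the dotted line) moved the count little.

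The 322 genes were chosen by the training contrast of rats 2 to 16, so their values there are a description. The libraries of rats 17 to 32 entered that choice through the filter, scaling and shared spread of the fit, though not through their training contrast. A fit of the libraries of rats 2 to 16 alone called 396 of 13423 genes tested, 256 of them among the 322. In rats 17 to 32, 216 of the 322 (67.1%) had the same sign, against 7544 of all 14033 genes (53.8%). Among the 217 that rose, 158 (72.8%) were higher in ExT in rats 17 to 32, and among the 105 that fell, 58 (55.2%) were lower. The median log2 fold change along the direction of the call was 0.48 in the lower range and 0.05 in the higher. At an unadjusted p under 0.05 in rats 17 to 32 there were 33 with the same sign and 3 with the opposite one. All 322 had a smaller absolute change in the higher range, which choosing them for a large change in the lower range favours.

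**Figure D3:**
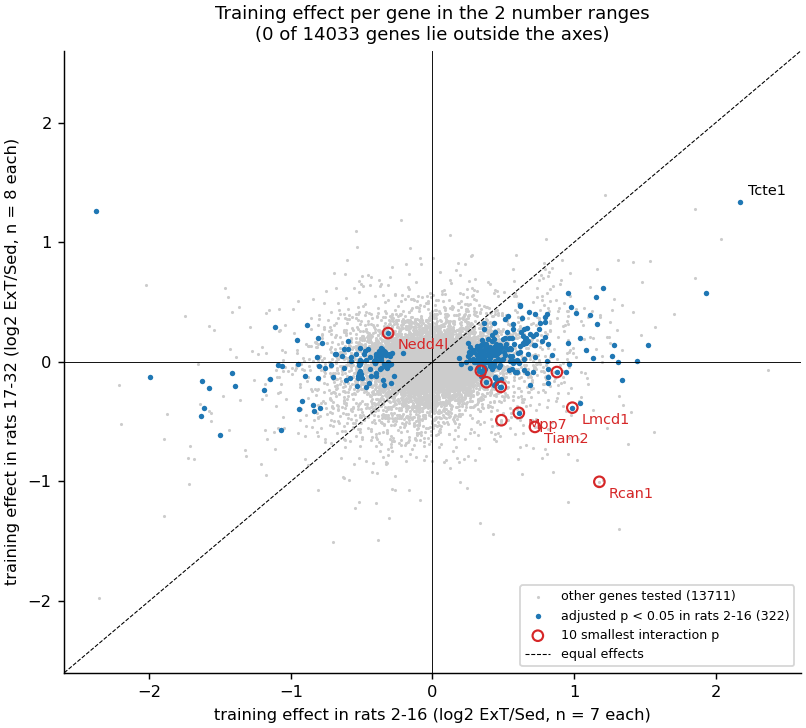
Log2 fold change, ExT against Sed, of each of 14033 genes in rats 2 to 16 (horizontal) and rats 17 to 32 (vertical), with the 322 genes called in the lower range in blue, the 10 genes of smallest interaction p ringed in red and equal effects on the dashed line. The blue points reach farther from 0 along the horizontal axis than along the vertical one, where their median along the direction of the call is 0.05, and Tcte1 lies at 2.18 and 1.34.

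Tcte1, a subunit of the complex that regulates dynein in cilia and flagella, was the gene with the largest rise in rats 2 to 16. Its level was low, 0.564 to 2.84 CPM in Sed (median 0.693) and 2.77 to 7.68 in ExT (median 4.93) in rats 2 to 16. Among rats 17 to 32 it was 0.949 to 2.74 in Sed (median 1.83) and 3.68 to 5.48 in ExT (median 4.45), and there the arms did not overlap. As a log2 fold change the training effect came to 2.18 (SE 0.284, edgeR adjusted p = 0.000188) in the lower range and 1.34 (SE 0.25, adjusted p = 0.116) in the higher, with an interaction of -0.84 (SE 0.377, adjusted p = 0.344). It was called in rats 2 to 16 in all 38 alternatives that tested it. Among rats 17 to 32 it was called by DESeq2 (adjusted p = 0.000589), on those libraries alone (0.00132), with library totals (0.0459), with the slow-fibre covariate (0.0074) and without Sed rat 15 (0.00265).

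The next largest rises in rats 2 to 16 had no counterpart of that size in rats 17 to 32. Fgfr3, a receptor for fibroblast growth factors, was 1.19 to 2.26 CPM in Sed (median 2.00) and 2.95 to 7.32 in ExT (median 5.45) in rats 2 to 16, without overlap. Among rats 17 to 32 it was 1.59 to 5.36 and 1.29 to 4.98 (medians 3.07 and 3.80). Training effects of Fgfr3 were 1.44 (SE 0.302, edgeR adjusted p = 0.0166) and 0.01 (SE 0.271). Fbxl2, a substrate receptor of a ubiquitin ligase, also separated the arms in the lower range, at 0.574 to 1.66 CPM in Sed and 1.80 to 4.05 in ExT, with effects of 1.34 (SE 0.301, adjusted p = 0.0217) and -0.15 (SE 0.269). Ceacam16, a cell adhesion protein, had 1.52 and 0.14, and Colq, which anchors acetylcholinesterase at the neuromuscular junction, 1.31 and 0.00. In rats 2 to 16 Ceacam16 was 0.134 to 2.01 CPM in Sed and 1.80 to 4.56 in ExT, with overlap. Its lowest value, in Sed rat 8, lay at the level of 3 counts in that library. Colq was kept in 19 of 39 alternatives.

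The largest falls in rats 2 to 16 were Ubxn10 (-1.58), Lama3, a laminin chain (-1.19), Slc25a25, a mitochondrial carrier of ATP-Mg and phosphate (-1.15), AABR07052523.2 (-1.11) and Egr1, an immediate early transcription factor (-1.07). Within rats 17 to 32 the same genes were at -0.22, -0.23, -0.14, 0.29 and -0.57. Egr1 was 9.73 to 23.8 CPM in Sed (median 17.7) and 5.81 to 9.97 in ExT (median 8.88) in rats 2 to 16, and 6.60 to 25.3 and 6 to 19.1 (medians 12.7 and 8.03) in rats 17 to 32. The arms overlapped in both ranges, and Egr1 was below 0 in both. Its interaction was 0.50 (SE 0.372, edgeR adjusted p = 0.595).

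Slow-fibre contractile genes, 10 genes led by the slow myosin heavy chain Myh7, varied widely in summed level between libraries. None of the 10 was called in either range or for the interaction. Their summed level was 5047 to 26510 CPM in Sed (median 9463) and 11950 to 29200 in ExT (median 21210) in rats 2 to 16. Within rats 17 to 32 it was 4629 to 26500 in Sed (median 16400) and 4887 to 22610 in ExT (median 15120). The Sed rats of the lower range held the lowest median and the ExT rats of that range the highest, with overlap in both ranges. Over the list, the median log2 fold change was 0.83 in rats 2 to 16 and -0.14 in rats 17 to 32, against -0.01 over all genes in both, and all 10 genes were above 0 in the lower range and 9 of 10 below 0 in the higher. The median interaction was -0.99 (range -1.20 to -0.74), with 2 of 10 genes, Myl3 and Casq2, at an unadjusted p under 0.05 (7.17% of all genes were lower at that level). In bulk muscle, a changed number of fibres of a type and a changed RNA level in each fibre cannot be told apart.

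Myh7 itself was 2990 to 14800 CPM in Sed (median 5300) and 6720 to 16500 in ExT (median 11400) in rats 2 to 16, and 2550 to 15400 and 2580 to 13200 (medians 9390 and 8500) in rats 17 to 32. Its SE of 0.394 in the lower range is large beside its effect of 0.79 (edgeR adjusted p = 0.26). Without Sed rat 24 the list's median was -0.28 in rats 17 to 32 and -1.12 for the interaction. Over the leave-outs the interaction median ran from -1.31 (without Sed rat 11) to -0.84 (without Sed rat 8).

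**Figure D4:**
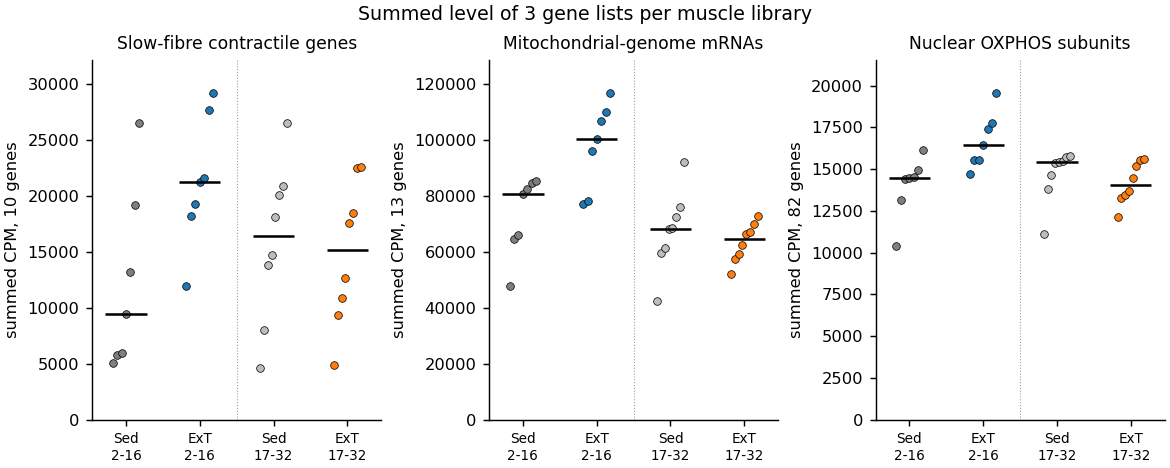
Summed CPM per muscle library of slow-fibre contractile genes, mitochondrial-genome mRNAs and nuclear-encoded OXPHOS subunits, 1 point per rat with group medians as bars, on linear axes from 0. In rats 2 to 16 the ExT medians lie above the Sed medians in all 3 panels (21210 against 9463 CPM for slow-fibre genes), and in rats 17 to 32 they lie slightly below.

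When the log2 share of slow-fibre genes in each library was added to the fit as a covariate, the calls in rats 2 to 16 went from 322 to 2, Tcte1 and Rnf152. The folds of the genes no longer called shrank unequally: Ldha went from -0.50 to -0.20, Hspb6 from 0.84 to 0.37 and Cs from 0.33 to 0.21, whereas Rapgef2 went from 0.34 to 0.33, Eng from 0.72 to 0.65, Fgfr3 from 1.44 to 1.31 and Egr1 from -1.07 to -1.14. Genes at an unadjusted p under 0.05 for the interaction went from 1803 to 840, with 0 called. Within rats 17 to 32 this fit called 6 genes: Tcte1, Ncf1, Lgr6 and Oplah higher, Apobec2 and Chrnd lower. The covariate was measured on the same libraries and may itself respond to training, so its part in the result was not tested.

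Of 9 fast-fibre contractile genes tested, 1 was called, Myh2, the myosin of oxidative fast (type IIA) fibres, which rose in rats 2 to 16 (1.55% of all genes rose). Its level was 2930 to 10900 CPM in Sed (median 7010) and 10000 to 16500 in ExT (median 12800) in rats 2 to 16, and 5690 to 15000 and 9340 to 16200 (medians 10900 and 11100) in rats 17 to 32. As a log2 fold change the training effect came to 0.96 (SE 0.213, edgeR adjusted p = 0.0202) and 0.16 (SE 0.198), the interaction -0.80 (SE 0.29, adjusted p = 0.263). The other 8 members did not pass, and all were below 0 in the lower range at an unadjusted p under 0.05 (9.15% of all genes were), such as Myh4, the fastest myosin, at -0.76 (SE 0.218, adjusted p = 0.0541) and Actn3, a structural protein of fast fibres, at -0.91 (SE 0.279, adjusted p = 0.069). Within rats 17 to 32 Myh4 was at -0.02 and Actn3 at 0.01. Medians over the list were -0.38 and -0.06, with an interaction of 0.24, which was -0.05 with the slow-fibre covariate. Myosin genes are close relatives, and reads shared between them may have been dropped or split when counted.

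Of the 13 messenger RNAs of the mitochondrial genome, which encode core subunits of the respiratory chain, 1 rose in rats 2 to 16 (1.55% of all genes did): Mt-cyb, a subunit of complex III. All 13 were above 0 there, 11 at an unadjusted p under 0.05 (11.1% of all genes were higher at that level). Within rats 17 to 32, 12 of 13 were below 0. Mt-cyb was 4340 to 6980 CPM in Sed (median 6410) and 6480 to 10800 in ExT (median 8240) in the lower range, and 3680 to 6940 and 4670 to 6210 (medians 5630 and 5560) in the higher. Over all 13 the median log2 fold change was 0.38 and -0.12, with an interaction of -0.52, and 12 of 13 genes had a lower effect in rats 17 to 32 at an unadjusted p under 0.05, against 7.17% of all genes. None of these interactions was called. Without Sed rat 24 the median was -0.20 in rats 17 to 32 and -0.59 for the interaction. Over the leave-outs the interaction median ran from that value to -0.45 (without Sed rat 8). These 13 transcripts come from the same small genome and are not independent.

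As a share of all counts the 13 mRNAs made up 4.78% to 8.72% in Sed (median 7.88%) and 8.02% to 11.3% in ExT (median 9.80%) in rats 2 to 16. Across rats 17 to 32 they made up 5.00% to 8.94% in Sed (median 6.53%) and 5.59% to 7.86% in ExT (median 6.54%). Their training difference was 2.30 percentage points in the lower range and -0.193 in the higher, and the difference between these was -2.49 points (q = 0.0206 over 3 tests, two-sided exact permutation of arm labels within each range). The null of that permutation is no training effect in either range, which is narrower than an equal effect in both. Over all 37 mitochondrial-genome genes, ribosomal and transfer RNAs included, the corresponding difference was -5.45 points (exact permutation p = 0.0523, q = 0.0784), which missed the threshold. That last value passed it without Sed rat 11, 24 or 30 or ExT rat 18, at -6.02 to -6.54 points, and ranged from -6.54 to -4.43 over all 30 leave-outs. The mRNAs-only test was planned as an alternative to the test over all 37 genes. The 37 include ribosomal RNAs, the libraries were depleted of ribosomal RNA, and whether that depletion varied between libraries was not tested.

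Of 78 nuclear-encoded subunits of the oxidative phosphorylation (OXPHOS) complexes tested, 6 rose in rats 2 to 16 (1.55% of all genes rose). There, 76 were above 0, and 51 were higher at an unadjusted p under 0.05 (11.1% of all genes were). Across rats 17 to 32 none was called, 2 were higher and 12 lower at an unadjusted p under 0.05 (2.93% and 4.71% of all genes were). Medians over the 78 were 0.25 and -0.10, and the median interaction was -0.34. For the interaction 55 of 78 were lower at an unadjusted p under 0.05 (7.17% of all genes were) and none higher. Without Sed rat 24 there were 14 called in rats 2 to 16, where the count over all genes stayed within 1.5 times of 322. The median was then -0.14 in rats 17 to 32 and -0.40 for the interaction. Over the leave-outs the interaction median ran from that value to -0.28 (without Sed rat 8).

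Ndufa12, a subunit of complex I, was 52.2 to 86.8 CPM in Sed (median 72.6) and 76.5 to 114 in ExT (median 93.3) in rats 2 to 16, and 48.9 to 68.3 and 51.5 to 71.8 (medians 66.9 and 59.4) in rats 17 to 32. Its effect was 0.37 (SE 0.0954, edgeR adjusted p = 0.0384) and -0.07 (SE 0.0893), its interaction -0.44 (SE 0.131, adjusted p = 0.2). Uqcrc1, a core subunit of complex III, rose by 0.37 (SE 0.0941, adjusted p = 0.0349) in the lower range and was at 0.10 in the higher. Cox7a1, the muscle form of a complex IV subunit, rose by 1.11 (SE 0.188, adjusted p = 0.00589) from a median of 3.04 to 5.90 CPM and was at 0.39 (SE 0.176, unadjusted p = 0.032) in rats 17 to 32. Cox7a1 counts are low, and reads shared with close copies may have been dropped when counted. Ndufb7, Ndufb10 and Cox5b were the other 3 called.

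Of 27 genes of fat uptake and oxidation tested, 2 rose in rats 2 to 16 (1.55% of all genes did): Acadvl, the first enzyme of long-chain beta-oxidation, and Ppara, a lipid-sensing transcription factor. Acadvl was 123 to 255 CPM in Sed (median 193) and 243 to 343 in ExT (median 288) in rats 2 to 16, and 159 to 300 and 208 to 329 (medians 240 and 263) in rats 17 to 32. For Acadvl the effect was 0.55 (SE 0.132, edgeR adjusted p = 0.0272) and 0.11 (SE 0.123), its interaction -0.44 (SE 0.18, adjusted p = 0.3). The 27 genes had medians of 0.44 and 0.02, with 21 of 27 higher at an unadjusted p under 0.05 in the lower range (11.1% of all genes) and 0 in the higher (2.93% of all genes). For the interaction 15 of 27 were lower and 1 higher at that level (7.17% and 5.68% of all genes were), with a median of -0.44. With Sed rat 24 left out there were 10 called in rats 2 to 16. The count over all genes in that range stayed within 1.5 times of 322 in that fit. The median interaction was then -0.50, and over the leave-outs it ran from -0.51 (without Sed rat 11) to -0.33 (without Sed rat 8). Fabp3, the muscle fatty acid binding protein, had the lowest interaction on the list at -0.96 (SE 0.345), from 0.88 and -0.08. The interaction was above 0 in 3 members: Ucp3, a mitochondrial uncoupling protein (-0.73 and 0.26), Angptl4, an inhibitor of lipoprotein lipase (-0.12 and 0.46), and Pdk4, which restrains pyruvate oxidation (0.15 and 0.31).

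Of 20 glycolysis and glycogen genes tested, 1 was called in rats 2 to 16, Ldha, which makes lactate from pyruvate, and it fell (0.748% of all genes did). It was 887 to 1670 CPM in Sed (median 1340) and 718 to 1140 in ExT (median 943) there, and 671 to 1330 and 643 to 1110 (medians 977 and 949) in rats 17 to 32. Ldha had effects of -0.50 (SE 0.14, edgeR adjusted p = 0.0499), close to the threshold and kept in 14 of 39 alternatives, and -0.13 (SE 0.131). The list's median was -0.35 and 0.05. The interaction was above 0 in 15 of 20, 10 of them at an unadjusted p under 0.05 (5.68% of all genes), among them the glycogen phosphorylase Pygm at 0.40 (SE 0.19) and the phosphorylase kinase subunit Phka1 at 0.55 (SE 0.198). Hk2, which traps glucose in the fibre, and the glucose transporter Slc2a4 were above 0 in both ranges, at 0.31 and 0.13 for Hk2 and 0.28 and 0.13 for Slc2a4, none of them called.

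Of 20 genes known as regulators or markers of endurance training, 4 rose in rats 2 to 16 (1.55% of all genes did): Cs, Fndc5, Ppargc1a and Ckmt2. Citrate synthase (Cs), a common measure of mitochondrial content, was 267 to 375 CPM in Sed (median 347) and 378 to 479 in ExT (median 429) in rats 2 to 16, without overlap. Across rats 17 to 32 it was 317 to 443 and 383 to 459 (medians 385 and 444), with overlap. Its effect was 0.33 (SE 0.0786, edgeR adjusted p = 0.0265) and 0.12 (SE 0.0734, unadjusted p = 0.107), the interaction -0.21 (SE 0.108, adjusted p = 0.407). Between the ranges, Cs was at 0.22 in Sed (adjusted p = 0.118) and 0.01 in ExT (adjusted p = 0.941), neither called.

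Ppargc1a, the coactivator that drives mitochondrial genes, was 25.6 to 35.5 CPM in Sed (median 33.5) and 35.9 to 47.9 in ExT (median 39.8) in rats 2 to 16, again without overlap. Across rats 17 to 32 it was 25.3 to 38.2 and 27.8 to 35.9 (medians 31.4 and 33.2). Its effect was 0.32 (SE 0.0816, edgeR adjusted p = 0.0355) and 0.06 (SE 0.0763). Between the ranges it was at -0.30 (adjusted p = 0.0113) in ExT and -0.04 (adjusted p = 0.82) in Sed, while its interaction of -0.26 (SE 0.112, adjusted p = 0.326) did not pass. Fndc5, the precursor of irisin, was at 0.65 (SE 0.157, adjusted p = 0.0277) and 0.18 (SE 0.146). Myoglobin (Mb) was at 0.72 and -0.05 and Vegfa, the main growth signal for capillaries, at 0.39 and 0.02, neither called. The list's median was 0.25 and 0.02.

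**Figure D5:**
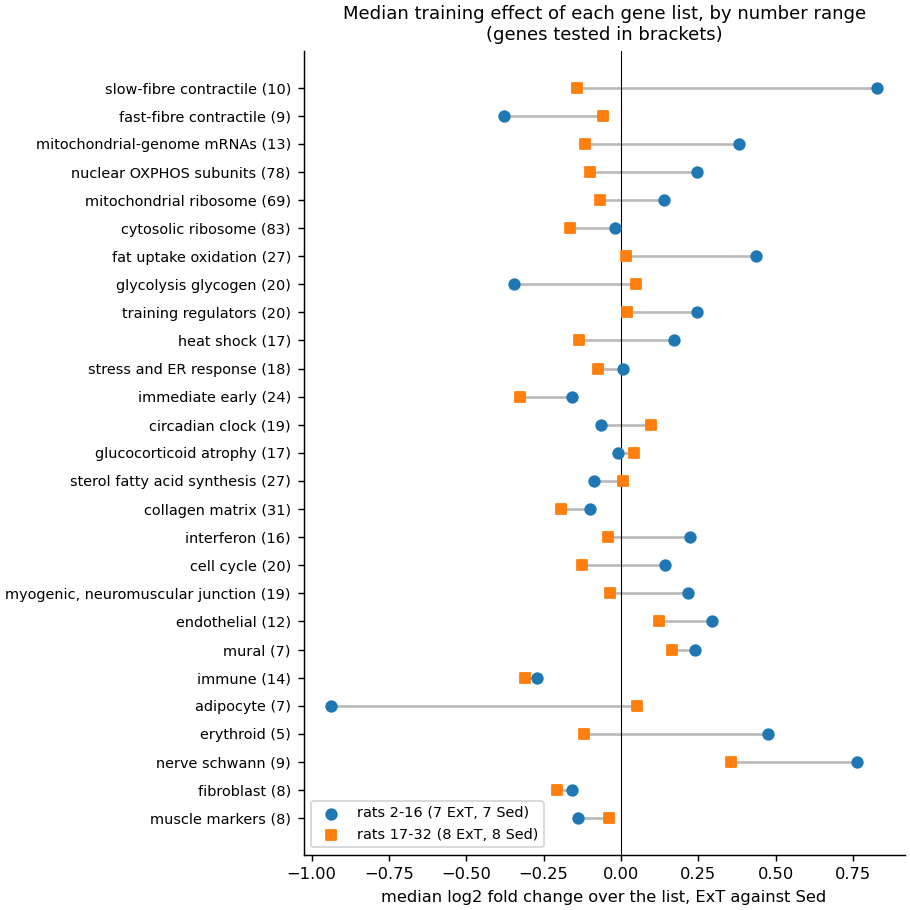
Median log2 fold change, ExT against Sed, of each of 27 gene lists in rats 2 to 16 (blue circles) and rats 17 to 32 (orange squares), with the number of genes tested in brackets and a grey line joining the pair. The slow-fibre list moves from 0.83 to -0.14 and the mitochondrial-genome mRNAs from 0.38 to -0.12, while the endothelial and mural lists lie above 0, and the immune list below 0, in both ranges.

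Of 17 heat shock and chaperone genes tested, 1 was called, Hspb6, a small heat shock protein of muscle, which rose in rats 2 to 16 (1.55% of all genes did). It was 245 to 624 CPM in Sed (median 405) and 567 to 979 in ExT (median 809) there, and 274 to 741 and 315 to 737 (medians 534 and 586) in rats 17 to 32, an effect of 0.84 (SE 0.213, edgeR adjusted p = 0.0357) and 0.06 (SE 0.198). The list's median was 0.17 and -0.14, with 4 genes lower at an unadjusted p under 0.05 in rats 17 to 32 (4.71% of all genes were). The interaction was below 0 in all 17, 11 at an unadjusted p under 0.05 (7.17% of all genes were), with a median of -0.38 and none called. With Sed rat 24 left out there were 2 called in rats 2 to 16. The count over all genes in that range stayed within 1.5 times of 322 in that fit. The list's median in rats 17 to 32 was then -0.14. Hsp90aa1, the inducible cytosolic HSP90, was at 0.49 and -0.29, with an interaction of -0.78 (SE 0.199), and Cryab, a chaperone of the sarcomere, at 0.63 and -0.46.

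No ribosomal protein gene was called in either range. Mitochondrial ones (69 tested) had medians of 0.14 and -0.07. At an unadjusted p under 0.05, 20 were higher in rats 2 to 16 (11.1% of all genes were) and 9 lower in rats 17 to 32 (4.71% of all genes were). Without Sed rat 24 the median in rats 17 to 32 was -0.11. In that fit 1 gene was called in rats 2 to 16, where the count over all genes stayed within 1.5 times of 322. Cytosolic ones (83 tested) had a median of -0.02 in the lower range and -0.17 in the higher, where 38 were lower and 0 higher at an unadjusted p under 0.05, against 4.71% of all genes that were lower. Their smallest adjusted p in rats 17 to 32 was 0.37, for Rpl31 and Rps15. The median interaction was -0.19 for the mitochondrial and -0.15 for the cytosolic list, and the difference between the lists was not tested. Many cytosolic ribosomal genes have processed copies in the genome, and how the counting treated them is not given in the sources used here.

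Genes that mark other cell types of muscle were described in the same way. Endothelial genes (12 tested) had medians of 0.30 and 0.12 and were above 0 in 11 of 12 in both ranges. Eng, a co-receptor of growing endothelium, rose in rats 2 to 16 by 0.72 (SE 0.169, edgeR adjusted p = 0.0265), from 49.9 to 77.4 CPM in Sed to 87.2 to 114 in ExT without overlap, and was at 0.14 (SE 0.157) in rats 17 to 32. Mural genes (7 tested) were at 0.24 and 0.17, with 7 of 7 above 0 in both ranges, and immune genes (14 tested) at -0.27 and -0.31. Leaving out Sed rat 24, the immune median was -0.13 in rats 17 to 32, and its interaction turned from -0.06 to 0.14. These 3 lists kept the sign of their median in both ranges, and none of their members other than Eng was called.

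Nerve and Schwann cell genes (9 tested) were above 0 in 9 of 9 in both ranges, with medians of 0.76 and 0.36 and none called. Their summed level was 24.7 to 105 CPM in Sed and 47.1 to 207 in ExT in rats 2 to 16, and 33.4 to 169 and 50.1 to 189 in rats 17 to 32. Red cell genes (5 tested) were at 0.48 and -0.12. Adipocyte genes (7 tested) were at -0.94 and 0.05, and with a minimum mean of 5 CPM only 1 member was left, at 0.17 and -0.21, so the median rested on genes of low counts. Leaving out 1 library moved the adipocyte median between -1.55 (without ExT rat 2) and -0.39 (without Sed rat 8) in rats 2 to 16, and between -0.20 (without ExT rat 22) and 0.33 (without Sed rat 30) in rats 17 to 32. The part of these cell types in the other results was not tested.

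The mean of the training effects of both ranges was called for 73 genes (0.52%), 59 (0.42%) higher and 14 (0.0998%) lower in ExT. That count was 33 to 48 without Sed rats 4, 7, 8, 20 or 32 or ExT rats 5, 6, 10, 21, 25 or 27, and 118 to 222 without Sed rats 11, 16, 23 or 29.

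The interaction is also the number-range difference in ExT rats minus that in Sed rats, and each was tested in the same fit. In Sed, 227 genes (1.62%) differed between rats 17 to 32 and rats 2 to 16, 100 (0.713%) higher and 127 (0.905%) lower. In ExT, 1418 genes (10.1%) differed, 574 (4.09%) higher and 844 (6.01%) lower in rats 17 to 32. With library totals in place of TMM, the ExT count was 1356 and the share that was higher went from 40.5% to 61.7%, and the median of all genes moved from 0.01 to 0.06. These counts do not show that the arms differ, since the interaction called no gene. The Sed count was 67 without Sed rat 23, 68 without Sed rat 19, 75, 85 and 93 without Sed rats 4, 7 and 8, 125, 127, 133 and 137 without Sed rats 15, 31, 16 and 12, and 367 and 377 without Sed rats 29 and 11. The ExT count was 876 without ExT rat 5 and 908 without ExT rat 10.

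Genes called lower in ExT rats of the higher range included members of mitochondrial, ribosomal and heat shock lists. Of the 13 mitochondrial-genome mRNAs 11 were lower in rats 17 to 32 among ExT rats and 0 were called among Sed rats, with medians of -0.68 and -0.12. Nuclear OXPHOS subunits had 37 of 78 lower in ExT (6.01% of all genes were) and 1 called in Sed, where it was higher, with medians of -0.29 and 0.05. Mitochondrial ribosomal proteins had 22 of 69 lower in ExT, cytosolic ones 25 of 83 and heat shock genes 4 of 17. With library totals these became 31, 13, 23 and 2, and the mitochondrial-genome mRNAs stayed at 11. Over all 14033 genes the number lower in ExT went from 844 to 520 with that scaling. Of 27 genes of fat uptake and oxidation 0 were called in either arm, with medians of -0.24 in ExT and 0.15 in Sed. Slow-fibre genes had 0 called in either arm, with medians of -0.59 in ExT and 0.41 in Sed. Rcan1 was lower in ExT rats of the higher range by -1.07 (SE 0.317, edgeR adjusted p = 0.03) and at 1.11 in Sed (adjusted p = 0.0709).

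In the mitochondrial fraction of the same 30 rats (MT, from 530397 to 9988027 counts per library), the interaction was called for 0 of 21400 genes (0%) by edgeR, with 878 (4.1%) at an unadjusted p under 0.05 and 0 calls by DESeq2 and by voom. Training within rats 2 to 16 and within rats 17 to 32 gave 0 calls each (0%), with 1101 (5.14%) and 872 (4.07%) genes at an unadjusted p under 0.05. The shares at that unadjusted level lie near 5% in MT and at 12.8% for the interaction in SM. MT libraries were shallower, so a difference of the size seen in SM may not have been detectable there.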

How the data were processed

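The authors deposited unnormalised read counts in whole numbers, and those of SM and MT were analysed, 1 table each, over 30560 Ensembl genes; left ventricle was not used here. Per the submitters' processing notes, FastQC 0.74, cutadapt 4.6, STAR 2.7.11a, HTSeq and the build mRatBN7.2 were used; their options, the annotation release and the strand setting are not given in the sources used here. Near-identical, overlapping and antisense genes (myosins, ribosomal proteins, Cox7a1, Aldoa) are therefore uncertain.

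Libraries were placed in arms and ranges by title. No pair agreed within sampling noise (smallest chi-square per degree of freedom 14.4 in SM and 1.23 in MT). Counts were tested with edgeR 4.0.16 (R 4.3.3): TMM, filterByExpr, robust quasi-likelihood F test, 1 fit over the 4 groups of arm and range, Benjamini-Hochberg over all genes, threshold 0.05. DESeq2 1.42.0, limma 3.58.1 (voom with quality weights) and other scalings, filters, covariates and leave-outs were alternatives. The share of mitochondrial-genome counts was compared by two-sided exact permutation tests, whose smallest possible p was 0.00058 in rats 2 to 16. For the difference between ranges their null was no training effect in either range. The code was tested on simulated data.

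Named genes: the 10 of smallest interaction p (fewer than 10 being called) with a symbol and at least 1 CPM; the 5 largest called changes in each direction in each range; up to 3 called members of each list, or the most abundant member of a list with none. Of the list members, Ckmt2, Ndufb7, Ndufb10, Cox5b, Myh4, Actn3, Fabp3, Ucp3, Angptl4, Pdk4, Pygm, Phka1, Hk2, Slc2a4, Mb, Vegfa, Hsp90aa1, Cryab, Myl3, Casq2, Rpl31 and Rps15 were chosen after their values were seen, as were genes named for counts of 6 or fewer. The ranges, members and lists were chosen with earlier results of these data known. Intervals from depth cover counting error only.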

Additional observations from a re-analysis of the deposited data

Results flagged for a closer look

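In 6 of 180 groups of 7 or 8 rats (3.33%), over the named genes and the mitochondrial-genome share, 1 library lay far from the others by Dixon's test; chance flags about 1 in 20 groups. In Sed rats 17 to 32, the library of rat 24 was the lowest for 3 genes: Lmcd1 at 42.8 CPM (next 88.7), Ndufa12 at 48.9 CPM (next 62.4) and Mrpl12, a mitochondrial ribosomal protein, at 63.2 CPM (next 81). In ExT rats 2 to 16, rat 9 was the lowest for Ceacam16 at 1.8 CPM (next 3.25) and for Cox7a1 at 3.34 CPM (next 5.6), and rat 5 for Ubxn10 at 0.193 CPM (next 1.01). Rat 24 had the lowest quality weight of the 30 libraries, and without it Lmcd1 passed the interaction test at -1.49 (SE 0.266, edgeR adjusted p = 0.0436).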

How the results depend on the processing

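The interaction stayed at 0 calls in all settings but DESeq2 (46) and 4 leave-outs (range 0 to 4), and in MT in all settings. Calls in rats 2 to 16 were 183 with library totals, 164 without a count filter, 775 by DESeq2, 1173 by voom, 2 with the slow-fibre covariate and 28 to 1067 over leave-outs; with genes of at least 5 CPM 52.6% of 464 calls were higher, against 67.4% of 322. Calls in rats 17 to 32 were 1 with library totals, 3 by DESeq2, 6 with the covariate, 1 in a fit of those libraries alone and 0 to 1 over leave-outs. The mean effect of both ranges gave 73 calls (0.52%), 337 by DESeq2, 140 by voom, 22 with the covariate and 33 to 222 over leave-outs. For the number range, Sed counts were 148 (library totals), 121 (no filter), 347 (at least 5 CPM), 534 (DESeq2), 400 (voom) and 67 to 377 over leave-outs, against 227; ExT counts were 919 with the covariate and 876 to 1702 over leave-outs, against 1418. With mRNAs only, a smaller share of all counts, the difference between ranges was -2.49 points (q = 0.0206, exact permutation), a size not comparable with the next. The difference in the share of all mitochondrial-genome genes was -5.45 points, and -6.54 to -4.43 over leave-outs. In rats 2 to 16 it was 5.16 (4.14 to 5.95, past the threshold in 25 of 30) and in rats 17 to 32 -0.291 (-1.39 to 0.512, above 0 in 6: 0.234, 0.297 and 0.219 without Sed rats 23, 29 and 31, and 0.0112, 0.512 and 0.242 without ExT rats 25, 26 and 28). Beyond the smaller or larger number of genes or rats in some settings, the cause was not tested.

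No paired analysis was possible because SM_Sed and SM_ExT share no rat numbers. Scaling by library totals moved the median of all genes in the MT interaction to -0.70. The labels do not say what the number ranges stand for, and cage mates are not named. With 7 and 8 rats an arm, the median SE of an interaction was 0.157, which is not a limit of detection. Mpp7, with an interaction of -1.035 (SE 0.207, edgeR adjusted p = 0.154), did not pass. Differences between ranges of several times their SE could thus go uncalled.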

Other observations

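Collagen and matrix genes (31 tested) had medians of -0.10 in rats 2 to 16 and -0.20 in rats 17 to 32, with 22 and 28 genes below 0 and none called. Without Sed rat 24 the median in rats 17 to 32 was -0.10, and it ranged from -0.27 to -0.10 over the leave-outs. Immediate early genes (24 tested), which exercise and stress switch on within minutes, had medians of -0.16 and -0.33, and Egr1 was the only one called. Interferon-response genes (16 tested) were at 0.22 and -0.04, with 15 and 5 above 0, and cell cycle genes (20 tested) at 0.14 and -0.13, with 17 and 6 above 0. Leaving out 1 library moved the cell cycle median between 0.04 (without ExT rat 2) and 0.22 (without ExT rat 14) in rats 2 to 16 and between -0.23 (without Sed rat 29) and -0.03 (without Sed rat 23) in rats 17 to 32. The interferon median in rats 17 to 32 ranged from -0.12 (without Sed rat 20) to 0.03 (without Sed rat 31), a change of sign. No interferon or cell cycle gene was called. Ifi47, an interferon-induced GTPase, passed the interaction test at -0.81 (SE 0.137, edgeR adjusted p = 0.0186) when ExT rat 22 was left out.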
